A study of Homo sapiens with 9 samples.

Results

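Fibroblast growth factor (FGF) ligands, their receptors, an FGF carrier protein and the Sprouty feedback inhibitors were followed in multicellular tumor spheroids (MTSs) of PC-3, a human prostate cancer cell line grown from a bone metastasis. The set held 10 genes of the 27111 in the deposited gene tables, taken by symbol: the ligands FGF1, FGF2 and FGF18, the receptors FGFR1, FGFR3 and FGFR4, the carrier FGFBP1, and SPRY1, SPRY2 and SPRY4. The rule used the gene names alone, but the set was drawn up with earlier results of these data known. Of these, 9 had enough reads to pass the expression filter, as did 17108 genes in all, and FGFR3 did not.

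All 9 libraries came from PC-3 lines that were stably transduced with lentivirus and selected with puromycin, and were labelled as differing in the insert. Whether the lines also differed in other ways was not tested. The Empty line carried the vector alone, the NF-YAl line over-expressed the long murine isoform of NF-YA, and the NF-YAs line over-expressed the short murine isoform, with 3 libraries per line. Every library was made from pooled MTSs, and 1 transduced line stood for each construct, so the replicates measured the spread between spheroid cultures of the same line. NF-YA is the DNA-binding subunit of NF-Y, a transcription factor that binds the CCAAT box, and the long and short isoforms differ by alternative splicing of the transactivation domain.

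FGF ligands bind FGF receptors, which are receptor tyrosine kinases, together with heparan sulfate chains on the cell surface. Most of the FGF1 and FGF2 that leaves cells is held by heparan sulfate in the matrix, and FGFBP1 is a secreted protein that binds both and carries them back to the receptors. Active receptors signal through adaptors to RAS and the kinase ERK, and Sprouty proteins, which are themselves induced by ERK signalling, restrain that relay. In prostate cancer the pathway is known for its part in growth and in communication between tumor and stroma.

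Total expected counts, which are RSEM's estimates of reads per gene, ran from 18076979 to 27163976 per library. NFYA, the over-expressed gene, lay between 89.3 and 96.7 CPM (counts scaled to library size) in Empty, between 287 and 383 CPM in NF-YAl and between 254 and 265 CPM in NF-YAs, so that all 6 over-expressing libraries lay above all 3 Empty libraries. These are gene totals of reads counted on the human annotation, and they do not separate the isoforms. The transcript values of NFYA were not examined, so the NF-YAl and NF-YAs labels were not checked against each other. On the third principal component of all tested genes, which held 9.17% of the variance, NF-YAl replicate D (-50.1) was far from replicates A (32.5) and B (3.01) of that line. The luminal keratin KRT18 was present in every library at 229 to 375 CPM, and the prostate antigen KLK3 was at 0 counts in all of them, with an upper limit of 3 counts per library that a count of 0 allows. Some markers of other cell types were near 0, with the leukocyte gene PTPRC at no more than 0.493 CPM and the fibroblast genes DCN and LUM at no more than 0.327 CPM. Others were not, such as the endothelial genes PECAM1 (5.5 to 7.3 CPM in Empty) and VWF (6.4 to 7.3 CPM in Empty). The fibroblast list as a whole (4 of 4 genes measured) summed to 25.9 to 71.6 CPM in Empty, 76.7 to 261.7 CPM in NF-YAl and 99.5 to 149.2 CPM in NF-YAs, nearly all of it COL3A1. The leukocyte list (4 genes) summed to 53.5 to 71.0 CPM in Empty, 20.4 to 36.3 CPM in NF-YAl and 27.5 to 36.1 CPM in NF-YAs, nearly all of it CD68, and the endothelial list (4 genes) to 12.8 to 14.2 CPM, 6.22 to 7.11 CPM and 8.30 to 9.03 CPM. VWF was a DEG in NF-YAl (log2 fold change -3.23, edgeR adjusted p = 1.92e-06) and PECAM1 in NF-YAs (-1.73, edgeR adjusted p = 4.80e-05), both lower than in Empty. The epithelial list (5 genes) summed to 1119 to 1193 CPM in Empty and 521 to 710 CPM in the others. The part of these lists in the results was not tested. In such bulk libraries fewer cells of a kind and less RNA per cell cannot be told apart.

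Because NF-Y binds CCAAT, the promoter windows of the genes were searched for these letters on both strands (CCAAT or ATTGG). The windows were those of RefSeq on GRCh38.p14, from 250 bases before to 50 bases after an annotated start. They covered 9 of the 10 genes in 16 windows, and none was given for FGFR1. Matches were found in the window of FGFBP1 and in a pair of overlapping FGF1 windows that share the same letters, and in none of the windows of the other 7 genes. Over all 35116 windows of this length, 34.6% held a match, and 39.7% of 27305 genes had a match in at least 1 window. The windows of the genes whose level changed most are shown, with CCAAT or its reverse complement in capitals; FGFBP1 and FGF1 were the genes with a match, and the window of FGF18 had none and therefore no capitals.
FGFBP1 promoter, minus strand, chr4:15938691-15938990: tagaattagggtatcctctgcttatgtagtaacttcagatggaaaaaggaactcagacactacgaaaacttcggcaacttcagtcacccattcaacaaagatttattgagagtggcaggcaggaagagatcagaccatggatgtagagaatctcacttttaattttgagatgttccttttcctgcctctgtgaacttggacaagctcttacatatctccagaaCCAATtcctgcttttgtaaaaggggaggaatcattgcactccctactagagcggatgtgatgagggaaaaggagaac
FGF1 promoter, minus strand, chr5:142698021-142698320: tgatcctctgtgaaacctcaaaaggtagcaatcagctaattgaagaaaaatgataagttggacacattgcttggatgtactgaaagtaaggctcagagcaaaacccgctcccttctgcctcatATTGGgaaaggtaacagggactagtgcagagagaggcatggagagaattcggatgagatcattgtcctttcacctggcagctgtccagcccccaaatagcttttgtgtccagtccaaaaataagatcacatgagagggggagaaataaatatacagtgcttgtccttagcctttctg
FGF18 promoter, plus strand, chr5:171419397-171419696: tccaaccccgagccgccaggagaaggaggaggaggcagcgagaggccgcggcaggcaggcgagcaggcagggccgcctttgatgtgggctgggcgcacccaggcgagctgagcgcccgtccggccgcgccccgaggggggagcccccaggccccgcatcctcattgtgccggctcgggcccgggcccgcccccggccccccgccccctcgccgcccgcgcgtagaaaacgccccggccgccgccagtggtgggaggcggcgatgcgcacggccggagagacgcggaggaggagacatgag
The capitals of FGFBP1 begin 27 bases before the annotated start (position -27), and those of the FGF1 window begin at position -127. The window of FGF18 was 77.7% G and C, against 42.0% for FGFBP1 and 44.3% for the FGF1 window. FGF1 has a further pair of start sites downstream, whose windows held no match, and the files do not say which start each FGF1 transcript used. A match of letters is a description of the window and not a measured binding site.

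Differential expression was tested with edgeR over all 17108 genes, and a differentially expressed gene (DEG) had an adjusted p under 0.01 and an absolute log2 fold change above 1. In NF-YAl MTSs, FGF1 and FGFBP1 were down-regulated against Empty. In NF-YAs MTSs the same genes were down-regulated and FGF18 was up-regulated. Between NF-YAl and NF-YAs, FGF18 alone was a DEG, lower in NF-YAl. Over all genes, 3.50% were down-regulated and 4.76% up-regulated in NF-YAl against Empty, 3.90% down and 5.44% up in NF-YAs against Empty, and 2.86% were lower and 1.74% higher in NF-YAl than in NF-YAs. The NF-YAl and NF-YAs comparisons with Empty share the Empty libraries and are not independent of each other.

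Several members moved by less than the fold limit. At an adjusted p under 0.01 with no fold limit, 5 of the 9 passed in NF-YAl against Empty (1 higher, 4 lower), where 19.6% of all genes did. In NF-YAs against Empty 7 of the 9 passed (4 higher, 3 lower), against 22.6% of all genes, and between NF-YAl and NF-YAs 2 passed, both lower in NF-YAl, against 11.0%. These counts rested on the number of libraries. The 5 became 3 without Empty replicate B or C, 4 without NF-YAs replicate C and 6 without NF-YAl replicate A. The 7 became 3 without Empty replicate B or C or NF-YAs replicate B or C, 4 without NF-YAs replicate A and 5 without Empty replicate A. The 2 became 0 without NF-YAl replicate B or NF-YAs replicate C, and ran from 1 to 3 without each of the other libraries. When only the 2 groups compared were fitted, the 5 became 3, the 7 stayed at 7 and the 2 became 1. FGF1, FGFBP1 and SPRY2 passed against Empty in both lines under every one of these fits. The median log2 fold change of the 9 genes was -0.49 in NF-YAl against Empty, -0.02 in NF-YAs against Empty and -0.55 for NF-YAl minus NF-YAs, beside medians of 0.01, -0.003 and 0.02 over all genes.

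**Figure D1:**
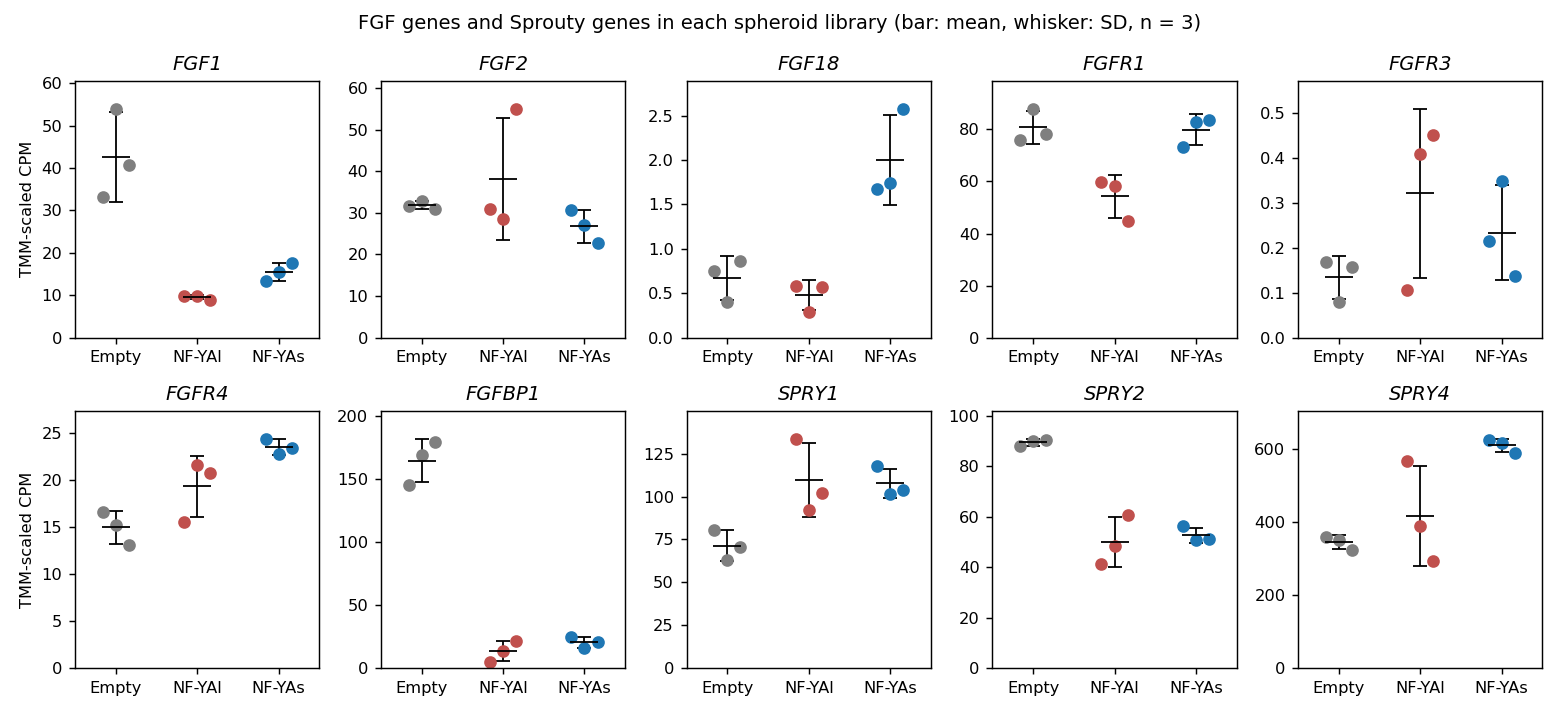
CPM of the 10 genes in each MTS library, scaled by TMM; each point is 1 library, bars are group means and whiskers the SD of 3 libraries, and each panel has its own linear axis from 0. FGF1 and FGFBP1 lie lower in every NF-YAl and NF-YAs library than in any Empty library, and FGF18 is highest in the 3 NF-YAs libraries.

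FGF1, a ligand that can bind every FGF receptor, is encoded on the minus strand at chr5:141971743-142077635 (GRCh37). It measured 33.1, 54.0 and 40.6 CPM in Empty replicates A, B and C. In NF-YAl replicates A, B and D it measured 9.81, 9.73 and 8.95 CPM, and in NF-YAs replicates A, B and C 13.2, 15.5 and 17.7 CPM. The 3 groups did not overlap, and NF-YAl was the lowest. FGF1 fell 4.48-fold from Empty to NF-YAl (log2 fold change -2.16, SE 0.176, adjusted p = 4.97e-06 with edgeR) and 2.75-fold from Empty to NF-YAs (-1.46, SE 0.171, adjusted p = 5.15e-05 with edgeR). Between NF-YAl and NF-YAs the log2 fold change was -0.71 (SE 0.176, adjusted p = 0.0135 with edgeR), which misses the threshold. SPRY4-AS1, a non-coding gene on the opposite strand that overlaps FGF1 over 79824 bases, is not among the genes counted. Both down-regulations passed under all 16 other fits, at log2 fold changes of -2.31 to -1.96 in NF-YAl and -1.60 to -1.25 in NF-YAs.

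FGF1 also differed in which transcript it was read from. Of its 14 annotated transcripts, the leading one was NM_001257210.1, of 3803 bases. It took 63.6%, 71.6% and 67.2% of the FGF1 transcript abundance (TPM) in Empty replicates A, B and C and 63.2%, 89.9% and 67.9% in the NF-YAs replicates. In NF-YAl replicates A, B and D it took 27.5%, 34.7% and 47.0%. The NF-YAl libraries lay below all 6 others, by 31.1 percentage points on average against Empty and 37.3 points against NF-YAs. A two-sided exact permutation test returned p = 0.1 for each, the smallest it can give with 3 libraries against 3. NF-YAs and Empty overlapped, with a mean difference of 6.20 points (exact permutation p = 0.7) that turned to -1.93 points without NF-YAs replicate B.

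A transcript of 4063 bases, NM_001257205.1, showed the opposite order in its share of the FGF1 TPM. In Empty it took 5.82%, 3.61% and 4.50%, in NF-YAs 6.64%, 2.19% and 7.01%, and in NF-YAl 17.7%, 20.4% and 30.4%, so that NF-YAl again did not overlap the others (exact permutation p = 0.1 against either group). A share also rises when the other transcripts of the gene fall. The estimated reads of this transcript overlapped between Empty (48.9, 52.5 and 49.6) and NF-YAl (34.5, 50.5 and 69.0). In TPM the leading transcript averaged 8.69 ± 1.89 for Empty, 1.35 ± 0.742 for NF-YAl and 3.89 ± 0.772 for NF-YAs (SD, n = 3). The remaining FGF1 transcripts together measured 4.13 ± 0.398, 2.22 ± 0.374 and 1.39 ± 0.754 TPM. Shares are taken within a library, whereas these TPM also carry the scale of each library, which was highest in NF-YAl replicate D. RSEM divides reads between transcripts that share exons, and the leading transcript rested on 49.96 to 99.47 estimated reads per library in NF-YAl, against 499 to 972 in Empty.

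FGF2, the other ligand without a classical secretion signal in this set, lies at chr4:123747837-123819391 on the plus strand (GRCh37). Its levels were 31.8, 32.9 and 30.9 CPM in Empty, 31.0, 28.4 and 55.1 CPM in NF-YAl and 30.6, 27.1 and 22.7 CPM in NF-YAs. A single library, NF-YAl replicate D, was high, and the others lay close together. No comparison passed, with log2 fold changes of 0.26 for NF-YAl and -0.25 for NF-YAs against Empty (edgeR adjusted p = 0.373 and 0.387) and 0.51 between the lines (0.0998). Without NF-YAl replicate D the first of these was -0.10. FGF2 overlaps NUDT6 on the opposite strand over 9540 bases. NUDT6 ran from 5.398 to 8.108 CPM across all libraries, and whether RSEM was run with strand is not given in the sources used here, so reads of the pair may have been shared.

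FGF18, a secreted ligand that signals mainly through FGFR3 and FGFR4, lies at chr5:170846651-170884630 on the plus strand (GRCh37). Its levels were low, at 0.75, 0.40 and 0.87 CPM in Empty and 0.58, 0.29 and 0.58 CPM in NF-YAl, and reached 1.67, 1.74 and 2.58 CPM in NF-YAs. All 3 NF-YAs libraries lay above the 6 others, while Empty and NF-YAl overlapped. The values came from 7 to 22 expected counts in Empty and NF-YAl and 31 to 56 in NF-YAs. FGF18 was 2.96-fold higher in NF-YAs than in Empty (log2 fold change 1.57, SE 0.357, edgeR adjusted p = 0.00474) and 4.17-fold lower in NF-YAl than in NF-YAs (-2.06, SE 0.379, edgeR adjusted p = 0.00257). Between NF-YAl and Empty the log2 fold change was -0.49 (SE 0.412, edgeR adjusted p = 0.398). At this depth the call depended on single libraries. Against Empty it was lost without Empty replicate A, B or C or NF-YAs replicate B or C (edgeR adjusted p 0.0148, 0.0224, 0.0105, 0.0111 and 0.0308), at log2 fold changes of 1.298 to 1.793 over the libraries left out. Against NF-YAs it was lost without NF-YAl replicate B or NF-YAs replicate C (edgeR adjusted p 0.0122 and 0.0171).

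Among the other 15 secreted ligands, only FGF5 and FGF7 passed the expression filter. FGF5, a ligand of FGFR1 and FGFR2, lay between 14.9 and 19.0 CPM in Empty, 16.9 and 24.6 CPM in NF-YAl and 26.2 and 31.0 CPM in NF-YAs, with log2 fold changes of 0.35 (edgeR adjusted p = 0.0966) and 0.75 (0.00222) against Empty. Shares of the TPM of all 18 secreted ligands compare them per length and within a library. FGF1 held 48.1% to 62.1% of the ligand TPM in the Empty libraries, 14.1% to 22.2% in NF-YAl and 23.9% to 28.8% in NF-YAs. FGF2 held 20.8% to 25.6%, 35.8% to 49.3% and 20.5% to 30.6%, and FGF5 12.1% to 19.5%, 27.98% to 33.54% and 33.6% to 35.5%. FGF1 was thus the leading ligand in every Empty library, FGF2 in every NF-YAl library and FGF5 in every NF-YAs library.

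FGFR1, the most abundant FGF receptor here, lies on chromosome 8 at chr8:38257733-38326352 on the minus strand (GRCh37). It measured 76.1, 88.0 and 78.2 CPM in Empty and 73.1, 82.9 and 83.7 CPM in NF-YAs. In NF-YAl it measured 59.8, 58.1 and 44.9 CPM, below all other libraries. The log2 fold change was -0.57 against Empty (SE 0.120, edgeR adjusted p = 0.00319) and -0.56 against NF-YAs (SE 0.120, edgeR adjusted p = 0.00621), a fall of 1.49-fold and 1.47-fold that passed the adjusted p but not the fold limit. The first was lost without Empty replicate B or C (edgeR adjusted p 0.0186 and 0.0113), and the second without Empty replicate A or C, NF-YAl replicate B or any 1 of the NF-YAs replicates (0.0112 to 0.0354). Both were also lost when only the 2 groups compared were fitted (edgeR adjusted p 0.0124 and 0.0195). NF-YAs against Empty gave -0.02 (SE 0.119, edgeR adjusted p = 0.931). LETM2, which overlaps FGFR1 by 9313 bases on the opposite strand, ran from 3.13 to 6.19 CPM, a small part of the FGFR1 level.

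FGFR4, at chr5:176513906-176525145 on the plus strand (GRCh37), measured 16.5, 15.2 and 13.1 CPM in Empty, 15.5, 21.6 and 20.7 CPM in NF-YAl and 24.4, 22.7 and 23.4 CPM in NF-YAs. NF-YAs lay above all other libraries, and NF-YAl overlapped Empty through replicate A. The log2 fold change was 0.65 for NF-YAs against Empty (SE 0.141, edgeR adjusted p = 0.00344) and 0.37 for NF-YAl against Empty (SE 0.141, edgeR adjusted p = 0.0619). The former no longer passed without Empty replicate B or C or any 1 of the NF-YAs replicates (edgeR adjusted p 0.0118 to 0.0229), and the latter passed without NF-YAl replicate A (0.51, edgeR adjusted p = 0.00649). FGFR3, at chr4:1795020-1810599 on the plus strand (GRCh37), had 2 to 11 expected counts per library (0.08 to 0.45 CPM), too few to test.

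Within the summed TPM of FGFR1, FGFR2, FGFR3 and FGFR4, FGFR1 held 68.2% to 74.7% in Empty, 52.0% to 65.2% in NF-YAl and 61.2% to 65.6% in NF-YAs. FGFR4 held 22.9% to 27.7%, 31.2% to 43.9% and 32.5% to 37.1%. The share of FGFR1 lay lower and that of FGFR4 higher in every NF-YAl and NF-YAs library than in any Empty library. The leading FGFR1 transcript took 54.1% ± 4.66 of the gene's TPM for Empty, 50.9% ± 5.42 for NF-YAl and 48.3% ± 7.59 for NF-YAs (SD, n = 3), with overlap between all groups.

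FGFBP1, the FGF carrier, lies at chr4:15937200-15940363 on the minus strand (GRCh37) and had the largest change of the set. It measured 145.4, 169.2 and 179.1 CPM in Empty. In NF-YAl it measured 4.99, 13.6 and 21.2 CPM and in NF-YAs 24.6, 16.02 and 20.2 CPM. Every NF-YAl and NF-YAs library lay far below every Empty library, and both lines overlapped each other. FGFBP1 was 12.3-fold lower in NF-YAl (log2 fold change -3.62, SE 0.361, edgeR adjusted p = 2.04e-05) and 8.12-fold lower in NF-YAs (-3.02, SE 0.350, edgeR adjusted p = 4.79e-05). A change of this size or more, in either direction, was seen in 0.836% of all tested genes for NF-YAl and 1.59% for NF-YAs. NF-YAl minus NF-YAs was -0.59 (SE 0.346, edgeR adjusted p = 0.236). The fall passed under all 16 other fits, between -4.11 and -3.24 in NF-YAl and between -3.18 and -2.88 in NF-YAs.

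Of the Sprouty genes in the set, SPRY1 lay higher and SPRY2 lower in both lines, and SPRY4 higher in NF-YAs, none of them past the fold limit. SPRY3, the remaining Sprouty gene, had 0 to 2 counts per library in Empty, 5 to 19 in NF-YAl and 6 to 20 in NF-YAs. It was a DEG in NF-YAs (edgeR adjusted p = 0.00793) and not in NF-YAl (edgeR adjusted p = 0.0217), at counts too few for a dependable fold. SPRY3 passed the filter through the over-expressing libraries, so against Empty it could be called only upward. SPRY1, at chr4:124317950-124324915 on the plus strand (GRCh37), measured 80.7, 62.9 and 70.3 CPM in Empty, 133.8, 92.3 and 102.4 CPM in NF-YAl and 117.6, 101.3 and 104.1 CPM in NF-YAs. No over-expressing library came down to the Empty range. The rise was 1.53-fold in NF-YAl (log2 fold change 0.62, SE 0.141, edgeR adjusted p = 0.00546) and 1.51-fold in NF-YAs (0.59, SE 0.141, edgeR adjusted p = 0.00607), with a difference of 0.02 between the lines (edgeR adjusted p = 0.924). The first was lost without Empty replicate B or C or NF-YAs replicate C (edgeR adjusted p 0.0101 to 0.0315), and the second without Empty replicate B or C or any 1 of the NF-YAs replicates (0.0141 to 0.0318). The rise in NF-YAl was also lost when only NF-YAl and Empty were fitted (edgeR adjusted p 0.0175).

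SPRY2, at chr13:80910111-80915261 on the minus strand (GRCh37), moved the other way. It measured 87.9, 90.2 and 90.5 CPM in Empty, 41.0, 48.4 and 60.8 CPM in NF-YAl and 56.1, 50.6 and 51.2 CPM in NF-YAs. The Empty libraries were nearly alike and lay above all others. SPRY2 fell 1.78-fold in NF-YAl (log2 fold change -0.84, SE 0.126, edgeR adjusted p = 0.000362) and 1.70-fold in NF-YAs (-0.77, SE 0.126, edgeR adjusted p = 0.000578). Its adjusted p stayed under 0.01 in all 16 other fits of both comparisons.

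SPRY4, at chr5:141689992-141706020 on the minus strand (GRCh37), had the highest counts of the set. It measured 358.7, 350.1 and 322.4 CPM in Empty and 622.9, 614.4 and 587.5 CPM in NF-YAs, a rise of 1.77-fold (log2 fold change 0.82, SE 0.181, edgeR adjusted p = 0.00382). NF-YAs lay above every other library, but the adjusted p was over 0.01 when any 1 Empty or NF-YAs library was left out (0.0126 to 0.0215). In NF-YAl SPRY4 measured 565.0, 388.2 and 293.5 CPM and its replicates spanned the Empty range, at a log2 fold change of 0.27 (SE 0.180, edgeR adjusted p = 0.278). Without NF-YAl replicate A this was -0.01, and the difference between NF-YAl and NF-YAs went from -0.55 (edgeR adjusted p = 0.0450) to -0.83 (0.000357). SPRY4-IT1, a non-coding RNA known to come from a SPRY4 intron and listed as a gene of its own, lay between 16.1 and 18.6 CPM in Empty, 11.9 and 34.3 CPM in NF-YAl and 23.9 and 30.1 CPM in NF-YAs, with no adjusted p under 0.01.

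Within the summed TPM of the 4 Sprouty genes, SPRY2 held 27.4% to 30.5% in Empty, 9.90% to 21.3% in NF-YAl and 12.2% to 12.9% in NF-YAs. SPRY4 held 47.7% to 51.0%, 45.4% to 60.0% and 62.1% to 65.2%, and SPRY1 19.1% to 23.4%, 28.1% to 33.3% and 22.6% to 24.9%. SPRY2 was thus the smallest of the 3 in every NF-YAl and NF-YAs library, whereas in Empty it was above SPRY1. The leading transcripts of SPRY2 (81.9% ± 2.28 of its TPM in Empty, 80.6% ± 1.92 in NF-YAl, 81.3% ± 3.87 in NF-YAs) and of SPRY4 (64.8% ± 3.27, 66.5% ± 3.09 and 67.8% ± 1.36; SD, n = 3) overlapped between the groups.

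**Figure D2:**
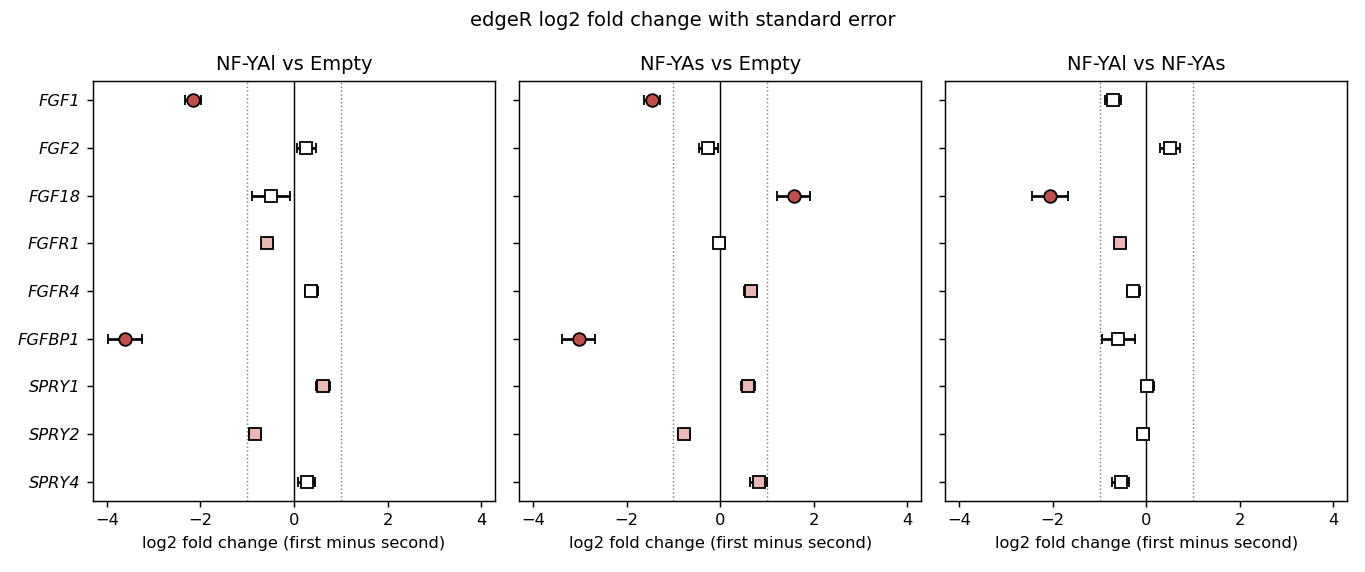
edgeR log2 fold changes (x axis, first group minus second) of the 9 tested genes in the 3 comparisons, with whiskers of 1 SE; dark red circles are DEGs, light red squares passed the adjusted p alone, white squares did not, and dotted lines mark the fold limit. FGFBP1 (-3.62 and -3.02) and FGF1 (-2.16 and -1.46) lie furthest to the left in both comparisons with Empty, and FGF18 (-2.06) between the lines.

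TPM, which correct for length, give the order of the genes within a library. In Empty the order was FGFBP1 (152 ± 8.93 TPM), SPRY4 (79.6 ± 16.8), SPRY2 (46.9 ± 6.94), SPRY1 (34.9 ± 10.4), FGFR1 (17.0 ± 1.97), FGF1 (12.8 ± 2.10), FGFR4 (5.90 ± 1.62), FGF2 (5.41 ± 0.906), FGF18 (0.417 ± 0.174) and FGFR3 (0.040 ± 0.020; SD, n = 3). Within each of the 3 Empty libraries this order held, except that FGF2 lay above FGFR4 in replicate C. In both over-expressing lines SPRY4 came first, at 116 ± 30.1 TPM in NF-YAl and 157 ± 18.04 TPM in NF-YAs, followed by SPRY1 and SPRY2. FGFBP1 came next, at 17.3 ± 15.4 TPM in NF-YAl and 21.5 ± 6.20 TPM in NF-YAs. SPRY4, SPRY1 and SPRY2 kept this order within all 6 libraries, whereas FGFBP1 lay below FGFR1 in NF-YAl replicate A and NF-YAs replicate B. For this order TPM were compared between genes only, since in NF-YAl replicate D the median gene had 0.661 TPM per CPM, against 0.338 to 0.463 in the other 8 libraries.

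**Figure D3:**
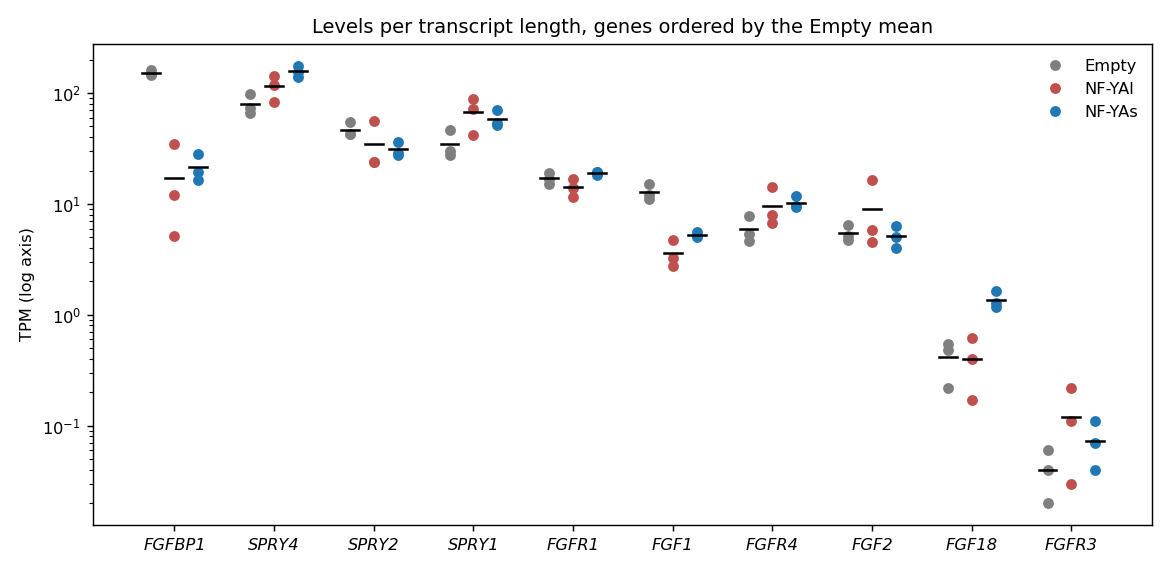
TPM (log axis) of the 10 genes, ordered by the Empty mean, in the 9 MTS libraries; points are libraries and bars are group means. FGFBP1 leads in Empty at 144.5 to 161.8 TPM, and SPRY4 leads in NF-YAl and NF-YAs.

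Several of the genes are neighbours on their chromosomes. FGF1 and SPRY4 lie 265.7 kb apart with no tested gene between them, and FGF2 and SPRY1 lie 498.6 kb apart with 1 tested gene between them. In NF-YAs FGF1 fell while SPRY4 passed the adjusted p in the upward direction. The median log2 fold change of the 100 tested genes nearest to FGF1 was 0.06 in NF-YAl and -0.14 in NF-YAs against Empty. For FGFBP1 it was -0.07 and -0.09, and for FGF18 -0.14 and -0.08, so that the regions as a whole moved far less than these genes.

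Of 99 genes of the FGF pathway in 10 role lists, which included the members, 81 passed the expression filter. In NF-YAl against Empty 5 were up-regulated and 3 down-regulated (9.88% of those tested, against 8.27% of all genes), with a median log2 fold change of 0.07. In NF-YAs against Empty 7 were up-regulated and 5 down-regulated (14.8%, against 9.34% of all genes), with a median of 0.06. Between NF-YAl and NF-YAs only FGF18 was a DEG (1.23%, against 4.61% of all genes). Without the members, 6 of 72 genes (8.33%) were DEGs in NF-YAl and 9 of 72 (12.5%) in NF-YAs, the former close to the share over all genes. SULF1 in NF-YAl and SPRY3 in NF-YAs, both among these DEGs, had at most 5 and 2 counts per Empty library. Both passed the filter through the over-expressing libraries, so against Empty they could be called only upward. The medians lay close to those of all genes.

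The heparan sulfate list held the most DEGs outside the members, with 3 of 16 tested genes up-regulated in NF-YAl (SDC2, HS6ST2 and SULF1), and 3 up-regulated (SDC2, GPC6 and HS6ST2) and 1 down-regulated (GPC4) in NF-YAs. This was 18.8% of the list in NF-YAl and 25.0% in NF-YAs, beside the 8.27% and 9.34% of all genes. SULF1 had at most 5 counts per Empty library, with means of 0.134 CPM in Empty and 0.792 CPM in NF-YAl. It passed the filter through the over-expressing libraries, so it could be called only upward. HS6ST2 was low too, at means of 0.82, 4.28 and 4.53 CPM in Empty, NF-YAl and NF-YAs. At an adjusted p under 0.01 with no fold limit, 3 genes of the list were higher and 4 lower in each line. The lower ones were SDC4, GPC1, GPC4 and SULF2 in both. Over all genes 19.6% passed in NF-YAl and 22.6% in NF-YAs. SDC2, a syndecan that carries heparan sulfate at the cell surface, measured 3.61, 4.89 and 3.58 CPM in Empty, 28.3, 25.9 and 22.8 CPM in NF-YAl and 13.3, 11.8 and 14.9 CPM in NF-YAs. The 3 groups did not overlap, and SDC2 rose 6.36-fold in NF-YAl (edgeR adjusted p = 7.42e-07) and 3.31-fold in NF-YAs (edgeR adjusted p = 1.14e-05). Of the glypicans, which are lipid-anchored heparan sulfate carriers, GPC6 rose 2.26-fold in NF-YAs (from 14.1 to 15.0 CPM in Empty to 30.9 to 34.7 CPM, edgeR adjusted p = 5.83e-05) and GPC4 fell 2.14-fold there (from 36.4 to 42.4 CPM to 15.5 to 20.4 CPM, edgeR adjusted p = 0.000158). In NF-YAl these 2 gave log2 fold changes of 0.51 and -0.64, short of the fold limit.

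In the relay from receptor to ERK, 20 genes were tested. NRAS was a DEG in both lines and SHC1 in NF-YAs, and 4 genes passed the adjusted p in each line. Among all genes, 8.27% were DEGs in NF-YAl and 9.34% in NF-YAs, and 19.6% and 22.6% passed the adjusted p. The relay counts lay near or below these shares, so the genes named here describe single genes and not the relay as a whole. NRAS, a RAS GTPase, measured 2.64, 1.59 and 1.34 CPM in Empty, 13.7, 21.0 and 28.4 CPM in NF-YAl and 25.5, 23.0 and 21.7 CPM in NF-YAs. Both lines lay far above Empty, at 11.4-fold in NF-YAl (edgeR adjusted p = 5.55e-06) and 12.6-fold in NF-YAs (edgeR adjusted p = 3.44e-06), and overlapped each other. SHC1, an adaptor of receptor tyrosine kinases, fell 2.03-fold in NF-YAs, from 189 to 200 CPM in Empty to 92.2 to 99.5 CPM (edgeR adjusted p = 6.61e-06). In NF-YAl it lay at 97.4 to 111 CPM, with a log2 fold change of -0.94 (edgeR adjusted p = 1.42e-05) just short of the fold limit. The others that passed without the fold limit were SOS2 (0.48) and GAB2 (-0.46) in NF-YAl, and HRAS (0.69) and GAB1 (-0.50) in NF-YAs. FLRT3, a membrane protein that binds FGFR1, rose 2.14-fold in NF-YAl (edgeR adjusted p = 0.00123) and 2.85-fold in NF-YAs (edgeR adjusted p = 0.000111).

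Among 14 feedback inhibitors, DUSP5, a nuclear phosphatase of ERK, fell 2.22-fold in NF-YAl (edgeR adjusted p = 0.00420) and 2.39-fold in NF-YAs (edgeR adjusted p = 0.00218), from 329 to 368 CPM in Empty. DUSP6, a cytoplasmic phosphatase of ERK, measured 157.4, 175.6 and 177.8 CPM in Empty, 235.3, 248.8 and 267.4 CPM in NF-YAl and 273.8, 283.7 and 282.0 CPM in NF-YAs. It lay higher in both lines without overlap, at log2 fold changes of 0.56 (edgeR adjusted p = 0.000603) and 0.72 (8.97e-05). The Sprouty-related inhibitor SPRED2 gave 0.63 in NF-YAl (edgeR adjusted p = 0.00376) and 0.50 in NF-YAs (0.0117), SPRED1 gave 0.36 (0.0437) and 0.40 (0.0245), and SPRED3 gave -0.06 (0.816) and -0.23 (0.274). Of 9 genes induced by ERK, 1 passed the adjusted p in NF-YAl, lower, and 1 in NF-YAs, higher, both short of the fold limit. The lower one was FOSL1, at a log2 fold change of -0.73 in NF-YAl (edgeR adjusted p = 0.00697) and -0.40 in NF-YAs (0.0948). The median log2 fold change of the 9 was -0.08 in NF-YAl and -0.29 in NF-YAs. ETV4, an ETS factor, gave 0.21 in NF-YAl (edgeR adjusted p = 0.106) and 0.46 in NF-YAs (0.00205), and its relative ETV5 gave 0.15 (0.220) and -0.10 (0.443). DUSP4, another nuclear phosphatase of ERK, gave -0.09 (0.498) and -0.44 (0.00277). Of the 14 inhibitors, 6 passed the adjusted p in NF-YAl (3 higher, 3 lower) and 7 in NF-YAs (4 higher, 3 lower). Over all genes 19.6% passed in NF-YAl and 22.6% in NF-YAs, which also stands beside the count of the 9 genes induced by ERK. The inhibitors that passed in NF-YAs were SPRY1, SPRY3, SPRY4 and DUSP6, which were higher, and SPRY2, DUSP4 and DUSP5, which were lower. Of these, SPRY3 had at most 2 counts per Empty library and could be called only upward.

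**Figure D4:**
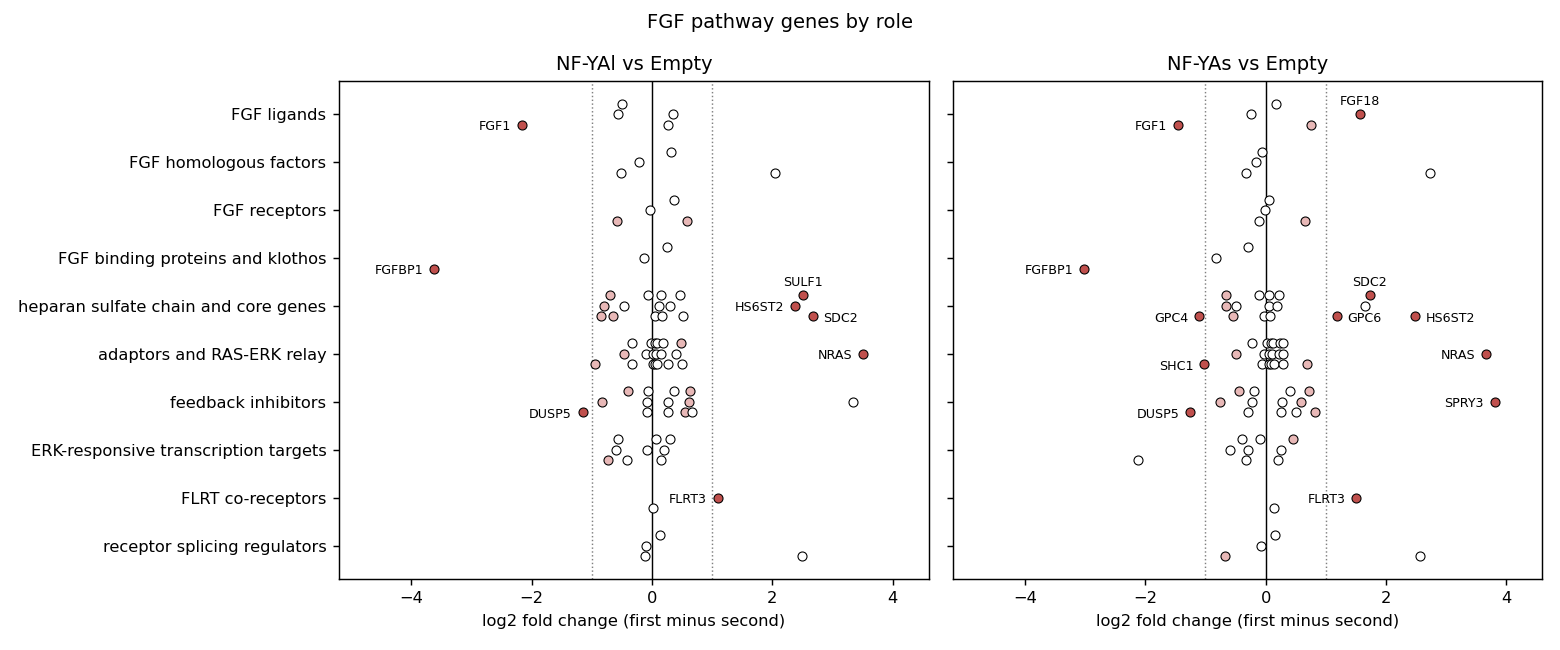
edgeR log2 fold changes (x axis) of the 81 tested FGF pathway genes by role (y axis), for NF-YAl and NF-YAs against the same Empty libraries; each point is 1 gene, dark red marks DEGs, which are named, light red an adjusted p under 0.01 alone, and dotted lines the fold limit. FGFBP1 lies furthest to the left in both panels (-3.62 and -3.02). Furthest to the right are NRAS in NF-YAl (3.51) and SPRY3, at few counts, in NF-YAs (3.81).

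Over the 9 libraries, the gene whose log2 CPM followed each member most closely was found by Pearson's r, as a description, since all pairs share the libraries and the group structure. Of the genes with at least 5 CPM on average, FGFBP1 followed ADCY7 (r = 0.998), SPRY2 followed CYB5B (0.996) and FGF1 followed ALAS1 (0.996). The values were 0.987 for FGFR4 and MAP3K1, 0.985 for FGFR1 and TRAPPC12, 0.984 for FGF2 and C8orf59, 0.980 for FGF18 and PRIMPOL, 0.979 for SPRY4 and KANK2 and 0.978 for SPRY1 and TRDMT1. Within the pathway lists, FGFBP1 and SPRY2 were each other's closest gene (r = 0.989), FGF1 was closest to GPC1 (0.958), FGFR4 to GPC6 (0.940), SPRY1 to FRS2 (0.941) and SPRY4 to ETV4 (0.929). FGF18 was closest to GRB2 (0.864) and FGFR1 to GAB2 (0.819).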

How the data were processed

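RNA-seq of 9 libraries of PC-3 MTSs was analysed, 3 each of Empty, NF-YAl and NF-YAs, grouped by the sample titles. Libraries were made with a stranded total RNA kit. The authors aligned reads with Bowtie2 within RSEM to human transcripts of hg19 (GRCh37). Per library they deposited the expected count of each gene and transcript, not normalized, in which reads shared between transcripts are divided by estimate. They also deposited TPM and FPKM, scaled by RSEM for effective length and library, the latter not used here. Each transcript's percent of its gene's TPM was deposited as well. Lengths and effective lengths, in bases, were deposited too.

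After rounding, the gene values entered edgeR 4.0.16 under R 4.3.3 (filterByExpr, TMM, 1 quasi-likelihood fit over the 3 groups, Benjamini-Hochberg over 17108 genes). DEG limits (0.01 for the adjusted p, 1 for the absolute log2 fold change) were those of the study. SE is the absolute log2 fold change over the square root of F. CPM are TMM-scaled. DESeq2 1.42.0 was an alternative, and the edgeR fit was tested on simulated counts. Transcript percents were compared by two-sided exact permutation tests. Gene positions are those of GENCODE on GRCh37, and promoter windows those of RefSeq on GRCh38.p14. The text gives all 10 members. Of the pathway lists it names up to 12 DEGs per comparison, by fold, whose groups do not overlap and whose higher group averages 5 CPM or more, the ERK targets and inhibitors ETV4, ETV5, DUSP6 and SPRED1 to SPRED3, and the genes most alike over libraries (log2 of CPM plus 1). FGF5, SPRY3, DUSP4, SDC4, GPC1, HS6ST2, SULF1, SULF2, SOS2, GAB1, GAB2, HRAS, VWF, PECAM1, NUDT6, LETM2 and SPRY4-IT1 were added after their values were seen. The same holds for EPCAM, KRT8, CLDN4, CDH1 and FOSL1. The closest pathway gene of FGF2 is not reported here. The members and lists were chosen with earlier results of these data known. Counting limits cover counting error only. With 3 libraries per group, p-values weigh a difference against the spread between repeat cultures of 1 line per construct. They do not cover the spread between separately transduced lines.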

Additional observations from a re-analysis of the deposited data

Results flagged for a closer look

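For 2 members the response differed between the isoforms when NF-YAl and NF-YAs were tested against each other. FGF18 was lower in NF-YAl, with a log2 fold change of -2.06 (SE 0.379, edgeR adjusted p = 0.00257), after values of -0.49 for NF-YAl and 1.57 for NF-YAs against Empty. All 3 NF-YAs libraries lay above all 3 NF-YAl libraries, at 31 to 56 expected counts against 7 to 14. FGFR1 was lower in NF-YAl, with a log2 fold change of -0.56 (SE 0.120, edgeR adjusted p = 0.00621), after -0.57 and -0.02 against Empty, and it passed under 9 of 16 other fits.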

How the results depend on the processing

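Against Empty, FGF1 and FGFBP1 remained DEGs in both lines under each of 16 other fits. Removing the fold limit raised the members past the threshold from 2 to 5 (NF-YAl against Empty), 3 to 7 (NF-YAs against Empty) and 1 to 2 (between the lines), and the pathway genes from 8 to 23, 12 to 26 and 1 to 9. The share of all genes went from 8.27% to 19.6%, 9.34% to 22.6% and 4.61% to 11.0%. With at least 10 counts required in every library FGF18 was not tested, and members and pathway genes called between the lines both went from 1 to 0. Pathway genes called between the lines were 2 with DESeq2 and 3 at an adjusted p under 0.05. Leaving out 1 library at a time gave 0 to 1 members and 1 to 2 pathway genes called between the lines, 2 members called in NF-YAl, 2 to 3 in NF-YAs, and 6 to 8 and 8 to 15 pathway genes. It turned the sign of small log2 fold changes: FGF2 in NF-YAl (-0.10 to 0.44), FGFR1 in NF-YAs (-0.054 to 0.050), SPRY4 in NF-YAl (-0.01 to 0.47), and between the lines SPRY1 (-0.14 to 0.13) and SPRY2 (-0.231 to 0.053). The leading FGF1 transcript differed from Empty by -36.4 to -26.7 points in NF-YAl and -1.93 to 11.4 points in NF-YAs, and between the lines by -42.6 to -29.2 points.

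Same-lettered libraries deviated together only weakly (correlations -0.07 to 0.23 over 7 pairs), so the letters were not taken as pairs. With a replicate block 3 members were called in NF-YAl, since SPRY2 reached a log2 fold change of -1.005, 3 in NF-YAs and 1 between the lines, pathway genes were 11, 14 and 3, and FGF2 in NF-YAl went to -0.17. Other scaling moved the median of all genes by under 0.1. Depth limits FGF18 and FGFR3 most. Unless stated, the cause was not tested.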
